A study of Mus musculus with 4 samples.

Results

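The mu, pi, theta and microsomal glutathione transferases were followed in Hepa1c1c7, a mouse hepatoma cell line, as 10 genes: Gstm1, Gstm2, Gstm4, Gstm5 and Gstm6 of the mu class, Gstp1 of the pi class, Gstt1 and Gstt2 of the theta class, and Mgst1 and Mgst2 of the microsomal class. Their 13 probes, out of 41174 on the array, were found by matching the accession that names each probe to a RefSeq transcript of the gene. The samples were 2 RNA samples from cells given 100 µM diethyl maleate (DEM) for 6 hours, set against 2 from cells exposed to the vehicle alone, dimethyl sulfoxide (DMSO), for the same time. Both groups were the same cell line, grown in medium with serum and antibiotics, so the comparison describes 1 hepatoma line and not liver. Nothing in the labels states that the 2 samples of a group were grown apart, so each p-value rests on a spread that may be technical. Liver tissue is named in the extract protocol, while the title, source, characteristics and growth protocol name the cell line. In such bulk RNA, fewer cells of a kind and less RNA per cell cannot be told apart.

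Glutathione transferases join the thiol of glutathione to electrophilic compounds, which makes them more soluble and ready for export. The mu, pi and theta enzymes are cytosolic dimers, whereas the microsomal ones are unrelated membrane proteins of the MAPEG superfamily, which also holds enzymes of leukotriene and prostaglandin synthesis. DEM is itself an electrophile that transferases conjugate to glutathione, and the series title calls it an activator of NRF2. NRF2 is a transcription factor that pairs with small MAF proteins on antioxidant response elements, and several transferase genes are known targets of it in rodent liver.

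Promoter sequences are shown for the 4 members whose start regions hold the core letters of such an element or a variant of them, and for Gstp2, a paralog of Gstp1 with the same match. RefSeq promoters (GRCm38.p6, 250 bases before to 50 bases after a transcript start) were matched by symbol for 9 of the 10 genes, and Gstt2 was the gene not matched. Both strands were searched for TGACNNNGC, the usual core, and for TGAGNNNGC, which differs from it in the fourth letter and cannot match at the same place on the same strand. At least 1 of these occurred in 4 of the 14 promoters of the members and in 27.8% of all 32851 promoters in the table. The 4 were those of Gstp1, Gstt1 and Gstm5, and 1 of the 2 promoters of Mgst1. By gene, 4 of the 9 held a match, against 30.8% of all genes in the table. TGACNNNGC occurred in 12.4% of all promoters and TGAGNNNGC in 17.6%, with some holding both. The promoters of Gstm1, Gstm2, Gstm4, Gstm6 and Mgst2 held no match in this window, which says nothing about sites elsewhere. The 110 bases that end just before the start are printed for Gstp1 (chr19:4037913-4038022, minus strand), for its neighbour Gstp2 (chr19:4042222-4042331, minus strand), for Gstt1 (chr10:75797732-75797841, minus strand), for Mgst1 (chr6:138140417-138140526, plus strand) and for Gstm5 (chr3:107895744-107895853, plus strand), each 5′ to 3′ on the strand of the gene, with matches in capitals.
Gstp1: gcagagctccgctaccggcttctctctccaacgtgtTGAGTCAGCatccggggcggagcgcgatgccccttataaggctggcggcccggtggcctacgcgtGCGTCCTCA
Gstp2: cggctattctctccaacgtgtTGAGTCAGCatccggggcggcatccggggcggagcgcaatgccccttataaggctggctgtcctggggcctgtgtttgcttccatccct
Gstt1: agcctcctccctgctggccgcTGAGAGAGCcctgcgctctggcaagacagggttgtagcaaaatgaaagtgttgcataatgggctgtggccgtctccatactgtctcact
Mgst1: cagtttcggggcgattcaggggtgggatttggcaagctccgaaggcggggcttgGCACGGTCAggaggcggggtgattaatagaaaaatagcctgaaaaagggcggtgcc
Gstm5: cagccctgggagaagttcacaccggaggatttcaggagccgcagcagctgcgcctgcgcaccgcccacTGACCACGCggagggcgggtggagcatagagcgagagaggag
Gstp1 and Gstp2 shared the match TGAGTCAGC, which began at position −74 of Gstp1 and −89 of Gstp2, counted back from the start. Gstp1 held a further match of TGAGNNNGC on the opposite strand that ended at the base before the start. The match of Mgst1 lay on the opposite strand, at positions −56 to −48 counted from the start, and read TGACCGTGC. Gstm5 held TGACCACGC at positions −42 to −34 and a match of TGAGNNNGC further upstream than the bases printed. Gstt1 held TGAGAGAGC at positions −89 to −81. Outside the 10 genes, the mu gene Gstm7 held TGACAAAGC at positions −129 to −121, further upstream than the bases printed. No match was found for Gstm3 or Mgst3, which were searched as well.

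Across the members no change passed the test: of the 9 that could be tested, DEM gave 0 calls higher and 0 lower when limma was fitted across 15540 genes and a call was an adjusted p under 0.05 (Benjamini-Hochberg), against 1.22% of all genes tested called in either direction. Of these 9, 8 had a change above 0, as did 48.8% of all genes tested. At an unadjusted limma p under 0.05, 4 were higher and 0 lower, namely Gstm1, Gstm2, Gstp1 and Mgst1, against 9.02% of all genes higher and 10.2% lower. The values of the DEM arrays lay wholly above those of the DMSO arrays for 5 members, the same 4 and Gstm4, as they did for 24.9% of all genes tested. Gstt1 alone lay wholly below, as did 25.6% of all genes. The median log2 change of the 9 was 0.32, against −0.01 for all genes tested, and the adjusted p-values of the 9 ran from 0.0598 to 0.861 (limma, Benjamini-Hochberg). Whether Mgst1 and Gstm1 counted as called depended on the processing, since Mgst1 passed under 6 of 16 alternatives and Gstm1 under 5, all with a positive change.

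The array as a whole sets the scale of these values. Signals are the processed intensities of single spots, and before testing each was taken as log2 and set against the 75th percentile of its own array, which was 548 and 528 in DEM against 532 and 513 in DMSO. Between 50.4% and 52.6% of probes were well above background on an array and 0 spots were saturated. Over all genes, 110 were called higher and 79 lower in DEM, against 404 and 163 when arrays were scaled on their median and 238 and 583 when scaled on spike-in probes. Median scaling moved the median change of all genes to 0.14 and spike-in scaling moved it to −0.11 on the log2 scale, and each member moved by the same amount. As a check of the exposure, Nqo1, a quinone reductase, was 5.10-fold higher, Gclm, a subunit of the enzyme that starts glutathione synthesis, was 4.02-fold higher, and Hmox1, the haem oxygenase, was 23.4-fold higher with DEM (adjusted p by limma = 0.0125, 0.0229 and 0.00443). Of the 10 hepatocyte and hepatoma markers, Alb, Afp, Krt8 and Krt18 were well above background on all 4 arrays and Apob on 3, while Ttr, Apoa1 and Hnf4a were so on 0 arrays. Of the 5 tested, 0 were called and 2 were higher at an unadjusted limma p under 0.05: Afp, at 69590 and 68770 in DEM against 58370 and 51970 in DMSO, and Apob, at 52.7 and 119 in DEM against 14.4 and 3.46 in DMSO (limma adjusted p = 0.209 and 0.138). Their part in the members' values was not tested. Of the other cell types the lists covered, 0 of 4 endothelial markers were tested, and 0 of 2 leukocyte, 0 of 4 fibroblast and 0 of 4 cholangiocyte markers tested were called (limma, 1, 1 and 1 of them lower at an unadjusted p under 0.05, against 10.2% of all genes). Those tested were well above background on all 4 arrays: Csf1r and Cd14 (leukocyte), Col1a1, Col3a1, Pdgfrb and Dcn (fibroblast), and Krt19, Krt7, Sox9 and Spp1 (cholangiocyte). Ptprc, Adgre1, Lyz2, Col1a2, Lum and Epcam were too dim to test.

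**Figure D1:**
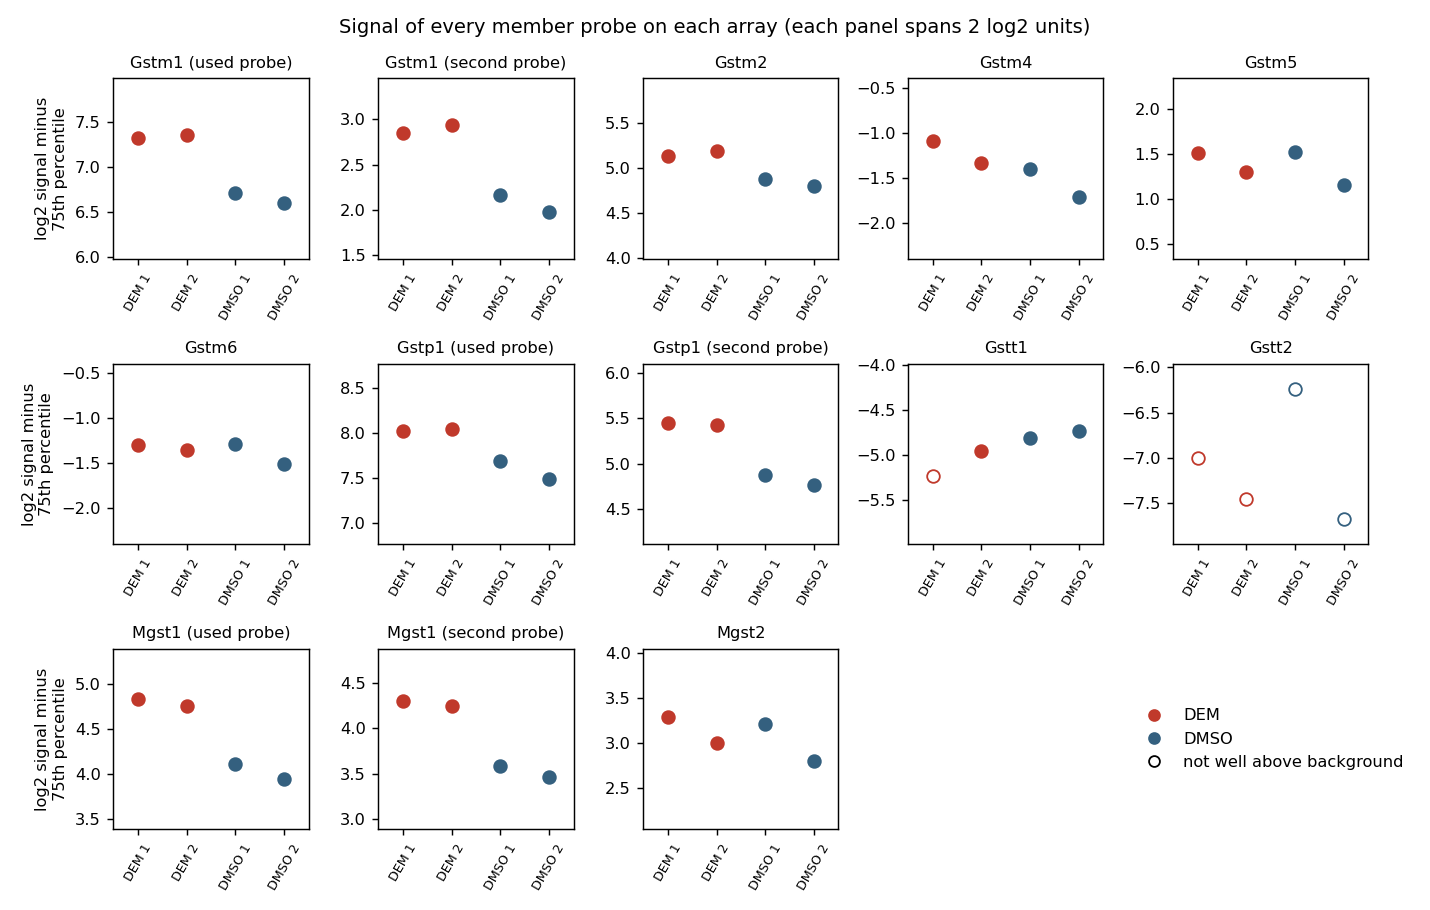
Log2 processed signal minus the 75th percentile of the array (vertical axis, 2 log2 units in every panel) for each of the 13 member probes on the 2 DEM and 2 DMSO arrays; open points are not well above background. Both probes of Gstm1, of Gstp1 and of Mgst1 lie higher on both DEM arrays than on either DMSO array, while Gstm5, Gstm6, Mgst2 and Gstt2 overlap between groups.

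In the mu class, the enzymes that conjugate epoxides, quinones and many other electrophiles, log2 changes ran from 0.07 to 0.68, with 2 of 5 genes higher at an unadjusted limma p under 0.05, against 9.02% of all genes tested. Signals of different probes do not rank transcripts, because each probe binds with its own strength, so levels are compared only within a probe. Gstm1, a main mu enzyme of mouse liver, had signals of 87300 and 86400 in DEM, against 55600 and 49900 in DMSO. Both DEM arrays were higher than both DMSO arrays, and the gap between the nearest arrays was 0.61 on the log2 scale. The log2 change was 0.68 ± 0.09 (SE, n = 2 arrays per group), or 1.60-fold with a 95% interval of 1.35 to 1.89, and it missed the threshold (limma adjusted p = 0.0598). The second Gstm1 probe read 3940 and 4040 in DEM, against 2380 and 2010 in DMSO. With every probe fitted on its own, it gave a log2 change of 0.83 ± 0.11 (limma adjusted p = 0.0608), so both probes put Gstm1 higher in DEM without overlap.

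The other mu members differed less between groups. Gstm2 read 19200 on each DEM array, against 15700 and 14300 in DMSO, without overlap. Its log2 change was 0.32 ± 0.09, or 1.25-fold with a 95% interval of 1.06 to 1.47 (limma adjusted p = 0.178). Gstm4 read 258 and 210 in DEM, against 202 and 157 in DMSO, so the groups were separate but only by 0.07 on the log2 scale after scaling. Its log2 change was 0.34 ± 0.16 (limma adjusted p = 0.332), with a 95% interval from −0.08 to 0.77. Gstm5 read 1560 and 1300 in DEM, against 1520 and 1140 in DMSO, and the groups overlapped. Gstm6 read 223 and 206 in DEM, against 218 and 180 in DMSO, again with overlap. The log2 changes of Gstm5 and Gstm6 were 0.07 ± 0.16 and 0.07 ± 0.11, with 95% intervals of −0.37 to 0.51 and −0.23 to 0.38 (limma adjusted p = 0.861 and 0.789). Both turned negative under spike-in scaling (−0.036 and −0.035) and without DMSO replicate 2 (−0.11 and −0.040), and Gstm5 also without DEM replicate 1 (−0.03).

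The neighbours Gstm3 and Gstm7 had log2 changes of 0.78 and 0.42, against 0.07 to 0.68 for the mu members. In the RefSeq order of GRCm38.p6 the mu genes form 1 cluster on chromosome 3 that runs Gstm5, Gstm7, Gstm6, Gstm3, Gstm2, Gstm1 and Gstm4. Gstm3, which is not among the 10, read 25300 and 25400 in DEM, against 15800 and 13100 in DMSO, without overlap, and its log2 change was 0.78 ± 0.11 (limma adjusted p = 0.0681). Gstm7, named after its values were seen, read 34.2 and 21.4 in DEM, against 22.1 and 17.4 in DMSO, with overlap. Its log2 change was 0.42 ± 0.25 (limma adjusted p = 0.438). This change was 0.11 without DEM replicate 1, 0.73 without DEM replicate 2 and 0.28 without DMSO replicate 2. After normexp background correction it was 0.069, but the offset of 50 in that correction shrinks the changes of dim probes. Along the cluster, log2 changes were thus 0.07, 0.42, 0.07, 0.78, 0.32, 0.68 and 0.34. The mu genes resemble each other in sequence, and how far one gene's probe reads another's transcript was not tested.

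**Figure D2:**
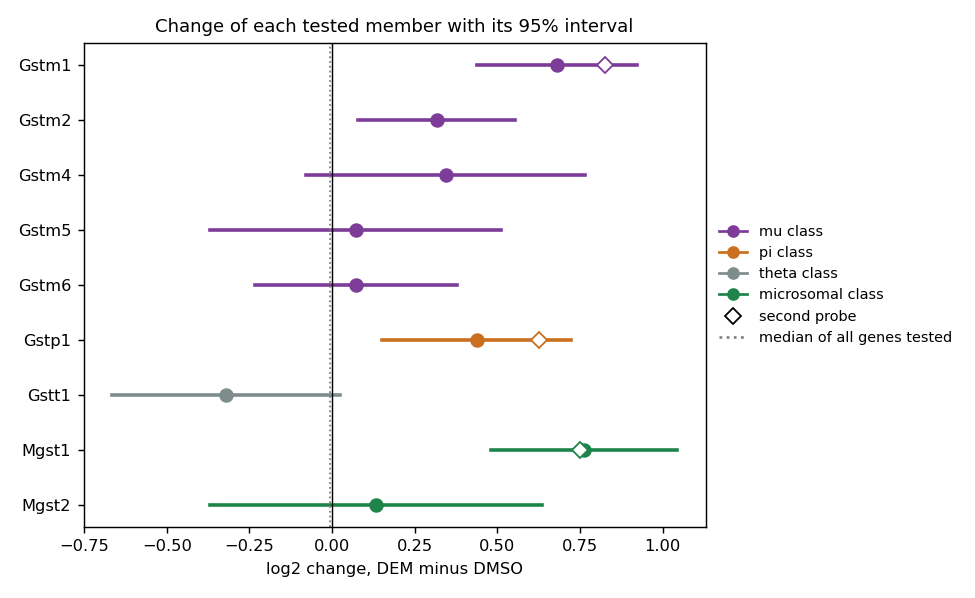
Log2 change, DEM minus DMSO, of the 9 tested members (circles) with the 95% interval from limma (lines), coloured by class; diamonds are the second probes of Gstm1, Gstp1 and Mgst1, and the dotted line is the median of all genes tested. The intervals of Gstm1, Gstm2, Gstp1 and Mgst1 lie above 0, although their adjusted p-values are between 0.0598 and 0.178.

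The pi class was represented by Gstp1, an enzyme abundant in mouse liver that conjugates acrolein and related unsaturated carbonyls. The probe used read 142000 and 139000 in DEM, against 110000 and 92400 in DMSO, without overlap. Its log2 change was 0.44 ± 0.11, or 1.35-fold with a 95% interval of 1.11 to 1.65 (limma adjusted p = 0.148). The second probe read 24000 and 22800 in DEM, against 15600 and 13900 in DMSO, and on its own it differed by 0.63 ± 0.09 on the log2 scale (limma adjusted p = 0.0716). The DEM arrays lay close to each other on both probes, with an SD of 0.015 on the log2 scale, against 0.14 and 0.081 for the DMSO arrays. Gstp2 had 0 probes under its own transcript accession, and Gstp3 was well above background on 0 arrays; how far the Gstp1 probes also read Gstp2 was not tested.

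The theta enzymes, known for conjugating small halogenated compounds, were near the lower limit of the array. Gstt1 read 14.5 and 17.0 in DEM, against 18.9 and 19.2 in DMSO, with the spot errors given by the scanner software between 3.31 and 3.71. The array's lowest signals well above background were 15.7 and 14.6 in DEM against 13.5 and 12 in DMSO, and Gstt1 was not well above background on DEM 1. Its log2 change of −0.32 ± 0.13 had a 95% interval of −0.67 to 0.02 (limma adjusted p = 0.285) and was −0.093 after normexp background correction. The offset of 50 in that correction shrinks the changes of dim probes. Gstt2 was well above background on 0 of 4 arrays, with signals of 4.27 and 3.0 in DEM against 7.06 and 2.50 in DMSO, so it was not tested and has no fold. Gstt3 and Gstt4, the other theta genes, were also well above background on 0 arrays.

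Of the microsomal members, Mgst1 had the larger change. This enzyme of the endoplasmic reticulum and outer mitochondrial membrane conjugates electrophiles and reduces lipid hydroperoxides. It read 15600 and 14200 in DEM, against 9220 and 7880 in DMSO, and the groups were 0.63 apart on the log2 scale at their nearest arrays. The log2 change was 0.76 ± 0.10, or 1.70-fold with a 95% interval of 1.40 to 2.06 (limma adjusted p = 0.0633). A second Mgst1 probe read 10800 and 10000 in DEM, against 6360 and 5660 in DMSO. Fitted on its own it gave 0.75 ± 0.10 (limma adjusted p = 0.0575), close to the value of the probe used. Mgst2, which can make leukotriene C4 as well as conjugate electrophiles, read 5330 and 4210 in DEM, against 4920 and 3580 in DMSO, with overlap. Its log2 change was 0.13 ± 0.19 with a 95% interval of −0.37 to 0.64 (limma adjusted p = 0.763). This change turned negative when DEM replicate 1 (−0.011) or DMSO replicate 2 (−0.070) was left out. It was 0.34 without DMSO replicate 1 and 0.31 after normexp background correction (limma adjusted p = 0.214 after normexp). Mgst3, the remaining microsomal transferase, named after its values were seen, read 465 and 311 in DEM, against 413 and 312 in DMSO, with a log2 change of 0.04 ± 0.23 (limma adjusted p = 0.950) that was −0.066 under spike-in scaling.

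Ratios between members on the same array do not depend on a scaling that shifts all log2 values of an array equally. They thus compare the members of a class with each other. Quantile normalization and normexp are not such scalings, and the ratios were not computed under them. After normexp the log2 changes of Mgst1 and Mgst2 were 0.80 and 0.31, against 0.76 and 0.13 as reported. The absolute ratio of 2 probes has no meaning, and only its difference between groups is read. Across the 11 pairs within the mu and microsomal classes, 8 had ratios that did not overlap between DEM and DMSO, and 4 of these 8 share Gstm1. Over all pairs of genes tested, 53.3% did not overlap. With 2 arrays per group a two-sided exact permutation test cannot give a p below 0.333, which these 8 pairs had (0.458 after Benjamini-Hochberg adjustment over the 11 pairs), so the design allows no call for any pair. The SE of a ratio comes only from the spread of the 2 arrays in each group and not from limma. The ratio of Gstm1 to Gstm2 was 4.55 and 4.50 in DEM, against 3.54 and 3.49 in DMSO, a log2 difference of 0.36 ± 0.01 (SE, n = 2 arrays per group). On DEM 1 the scanner software gave errors of 8730 on 87300 for Gstm1 and 1920 on 19200 for Gstm2. The ± 0.01 may thus understate the error of this ratio. The ratio of Gstm1 to Gstm6 was 391 and 419 in DEM, against 255 and 277 in DMSO, a log2 difference of 0.61 ± 0.08. The ratio of Mgst1 to Mgst2 was 2.93 and 3.37 in DEM, against 1.87 and 2.20 in DMSO, a log2 difference of 0.63 ± 0.15. In contrast, the ratio of Gstm5 to Gstm6 was 7.0 and 6.31 in DEM, against 6.97 and 6.33 in DMSO, a log2 difference of −0.00 ± 0.10. Gstm2 to Gstm4 and Gstm2 to Gstm5 also overlapped. The ratios of Gstm2 to Gstm6, Gstm4 to Gstm5 and Gstm4 to Gstm6 were higher in DEM without overlap. Their log2 differences were 0.24 ± 0.09, 0.27 ± 0.03 and 0.27 ± 0.10.

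**Figure D3:**
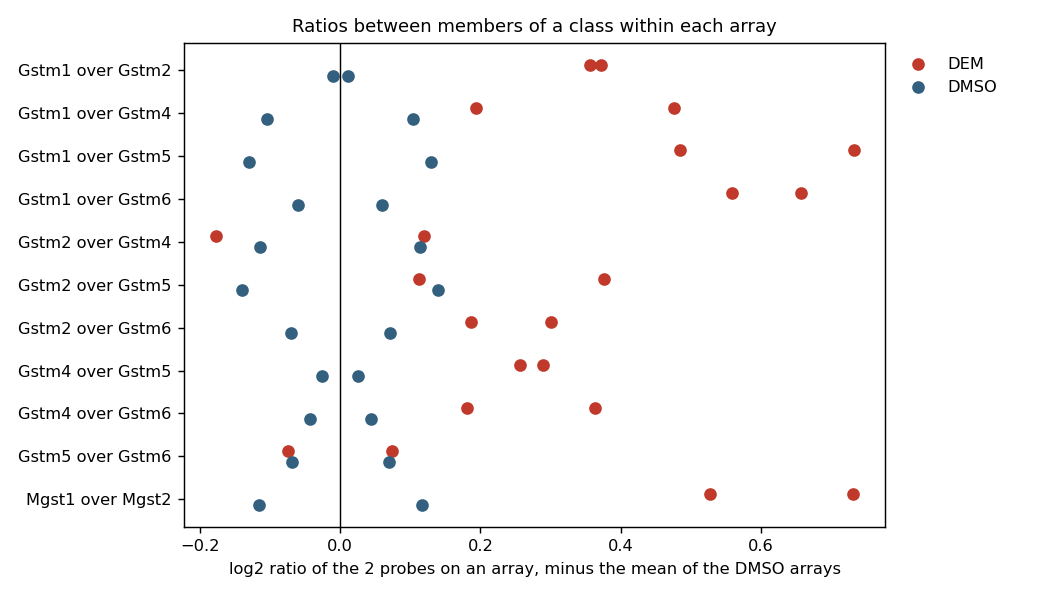
Log2 ratio of 2 member probes on the same array minus the mean of the DMSO arrays (horizontal axis) for the 11 within-class pairs, with 1 point per array. The 4 ratios of Gstm1 to another mu member, and that of Mgst1 to Mgst2, are higher on both DEM than on either DMSO array. So are Gstm2 over Gstm6, Gstm4 over Gstm5 and Gstm4 over Gstm6, while Gstm2 over Gstm4, Gstm2 over Gstm5 and Gstm5 over Gstm6 overlap.

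Over the 4 arrays, the genes whose centred log2 values lay nearest to those of Mgst1, the member with the largest change among the probes used, were Slc39a3, a zinc transporter, Cat, the catalase that breaks down hydrogen peroxide, and 1700028J19Rik, at Euclidean distances of 0.051, 0.052 and 0.054. Their log2 changes were 0.81, 0.76 and 0.73 (limma adjusted p = 0.0538, 0.0548 and 0.0773). Among the members Gstm1 was the nearest to Mgst1, at a distance of 0.13, and Gstt1 the farthest, at 1.13. The order of Mgst1 and Gstm1 depended on the probe, since the second Gstm1 probe had the larger change of 0.83. With 2 arrays a group such a distance mainly reflects the size of the change.

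Other transferases and the genes that act on glutathione conjugates give the setting. Of 8 tested genes of other transferase classes, 3 were called higher in DEM, 0 lower and 5 were not called, against 0.708% of all genes called higher. The 3 were of the alpha class, and Gsta3 was 4.58-fold higher (limma adjusted p = 0.0258). Neither DMSO array measured Gsta1 and Gsta2 well above background, so their rises are given as bounds, 10.8-fold and 4.15-fold, without sampling error. Each bound sets the DEM mean against the lowest signal well above background on each DMSO array or the probe's own, whichever was higher. Fitted on their own signals, Gsta1 and Gsta2 had limma adjusted p = 0.00443 and 0.0335. After normexp background correction, with its offset of 50, their log2 changes were 1.46 and 0.79, below these bounds. That offset shrinks the changes of dim probes, so these values do not test the bounds. Both entered the test only through the DEM arrays, where they were high, so the count of calls in this list depends partly on that filter. Gsta4, also of the alpha class and well above background on all 4 arrays, was 2.38-fold higher without overlap. It missed the threshold (limma adjusted p = 0.0535). The changes of the alpha genes and those of the members were not tested against each other. Of 15 tested genes for the fate of conjugates, 1 was called higher, 0 lower and 14 were not called, with a median log2 change of 0.18. The call was Abcc4, an exporter of organic anions, at 8390 and 7420 in DEM against 3660 and 3020 in DMSO. It was 2.31-fold higher (limma adjusted p = 0.0437). That call was lost under 7 of 16 alternatives, among them quantile normalization (limma adjusted p = 0.0504). Of the MAPEG relatives, Ptges, a prostaglandin E synthase, read 70.3 and 74.8 in DEM, against 97.8 and 102 in DMSO, with a log2 change of −0.50 ± 0.10 (limma adjusted p = 0.112), Alox5ap was also not called (adjusted p = 0.664), and Ltc4s was well above background on 0 arrays.

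**Figure D4:**
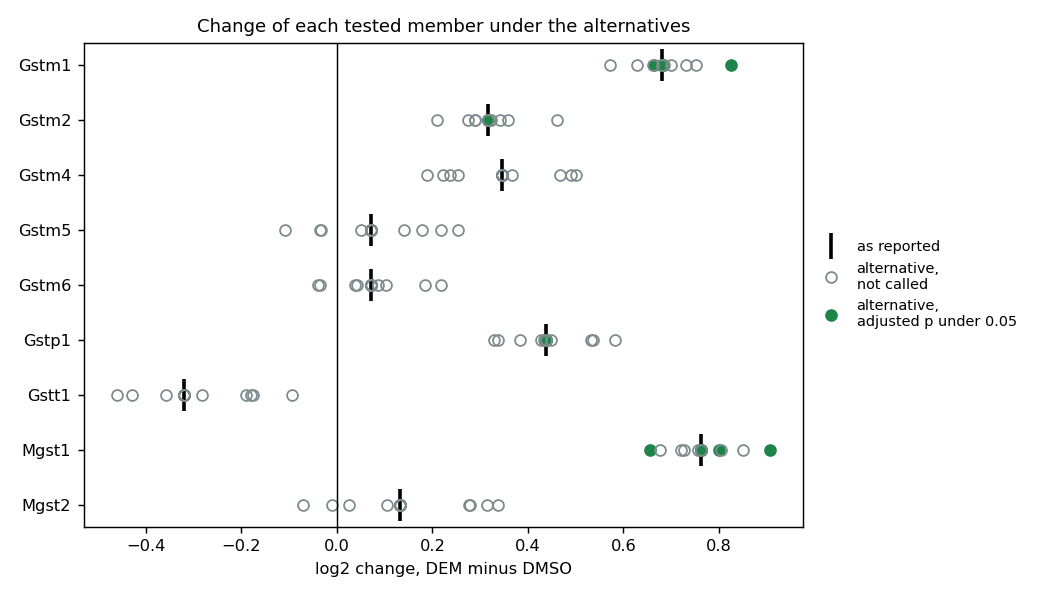
Log2 change, DEM minus DMSO (horizontal axis), of the 9 tested members as reported (black bar) and under the alternatives (circles, 15 for Gstt1 and 16 for the others), filled where limma's adjusted p is under 0.05. Gstm1 stays between 0.57 and 0.83 and Mgst1 between 0.66 and 0.91, and Gstm5, Gstm6 and Mgst2 lie on both sides of 0.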

How the data were processed

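Per the labels' protocols, amplified RNA carried Cy3 dye on 1-colour arrays. Per the file headers, the deposited intensity values come from Agilent Feature Extraction 10.7.3.1 (protocol GE1_107_Sep09, annotation on mm9), which subtracts background from each spot. All 4 arrays shared 1 slide and 1 scan time, so these could not be tested as batches. The authors' deposited value table held the same intensity on all 45018 spots of each array (column medians 13.8 to 16.2), and is linear and uncentred.

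Each processed signal was taken as log2 minus its array's 75th percentile, taken over 43379 spots that are not controls. Spots with an outlier flag were dropped, spots of a probe averaged, and 22 probes with no unflagged spot on at least 1 array were left out. Accessions gave 26690 probes 1 symbol through RefSeq (GRCm38.p6, used for names and neighbours, and for the promoters). A probe was tested if at least 2 arrays measured it well above background, and the one with the highest mean stood for its gene. DEM was compared with DMSO by limma 3.58.1 (lmFit, eBayes) in R 4.3.3 across all genes, with Benjamini-Hochberg adjustment, and the fit was checked on simulated data. Within-class ratios used an exact permutation test.

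The members, lists, tests and alternatives were chosen with earlier results of these data known. The rule for named genes took the members, the called genes of each list (other genes of the same classes, other MAPEG genes, other transferase classes, fate of glutathione conjugates) or its largest change, 3 exposure checks, and the 3 genes nearest to the most changed member. Other genes of those lists and marker genes that the text names were chosen after their values were seen. Normexp used the median spot signal, since the columns used here hold no mean, and added an offset of 50 to each signal. The number of arrays limits the precision.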

Additional observations from a re-analysis of the deposited data

How the results depend on the processing

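The median log2 change of the members stayed positive under all 16 alternatives (0.19 to 0.46), and 0 members were called lower under each. Of the 9 members tested, 6 kept the sign of their change under every alternative that gave a value. Many alternatives could not turn a sign, because they left each tested member's change as reported. These were the deposited value table, the 2 other filters, each probe on its own, the 2 trend fits and the replicate block. The exceptions were Gstm5 (−0.036 under spike-in scaling and −0.11 to 0.25 when 1 array was left out), Gstm6 (−0.035 and −0.040 to 0.18) and Mgst2 (−0.070 to 0.34 when 1 array was left out). Outside the members, Mgst3 gave −0.066 under spike-in scaling and −0.22 to 0.31 when 1 array was left out. Leaving out DEM replicate 1 or DMSO replicate 2 gave the values below 0. The cause was not tested.

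The count of members called higher, 0 as reported, was 4 with an intensity trend and robust fitting (Gstm1, Gstm2, Gstp1 and Mgst1), 3 with an intensity trend alone (Gstm1, Gstp1 and Mgst1), 2 each after normexp, under median scaling and when only probes well above background on all 4 arrays were tested (Gstm1 and Mgst1), and 1 under spike-in scaling (Mgst1, adjusted p = 0.0476). It was 0 in every fit that left out an array. The count of all genes called, 110 higher and 79 lower, became 437 and 370 after normexp, 61 and 32 under quantile normalization, 404 and 163 under median scaling, 238 and 583 under spike-in scaling, 0 and 0 with no filter on dim probes (limma; at an unadjusted p under 0.05, 1246 and 1919), 230 and 196 with the filter on all 4 arrays, 415 and 311 with a trend, and 492 and 390 with a trend and robust fitting. Leaving out 1 array gave 0 to 69 higher and 0 to 52 lower, with 0 in each direction without DMSO replicate 1 or 2 (by limma's unadjusted p under 0.05, 984 and 1132 without the one and 845 and 1170 without the other). With no filter or without either DMSO array, the calls of Nqo1, Gclm, Hmox1, Gsta1, Gsta2, Gsta3 and Abcc4 were also lost. Abcc4 further lost its call under quantile normalization, with the mean of a gene's probes and without either DEM array.

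The replicate numbers are not stated to pair the samples, and the deviations of same-numbered arrays correlated at 0.14 across genes. With the replicate number as a block, 74 genes were called higher, 69 lower and 0 members. At an unadjusted limma p under 0.05 that fit gave 6 of the 9 tested members, against 1961 genes higher and 2340 lower of 15540. The 6 were Gstm1, Gstm2, Gstm4, Gstp1 and Mgst1, all higher, and Gstt1, lower. Signal over background limited Gstt1 and Gstt2.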
